A study of Rattus norvegicus with 9 samples.

Results

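A set of 9 genes of hexokinase and glycolysis control was followed in liver RNA of male Wistar rats, an outbred laboratory strain, at 2 ages. They were taken by name from the deposited table of read counts, which holds 23479 gene symbols, and all 9 listed symbols were present. The table gives them in capitals (HK1, HK2, HK3, GCKR, PFKL, PFKFB1, PFKFB3, PKLR and PKM), and they are written below in rat style. All 9 passed the filter on low counts. The young group held 5 animals of 6 months and the old group 4 animals of 24 months, and according to the series design each library came from its own animal. All animals were male and of the same strain, and the labels name no treatment, diet or time of feeding. The question the groups address is how liver transcripts differ between these ages.

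Glycolysis splits glucose to pyruvate, and its flow is set mainly at the hexokinase, phosphofructokinase and pyruvate kinase steps. Hepatocytes phosphorylate glucose largely with glucokinase, which is held in the nucleus by the regulatory protein that Gckr encodes, while Hk1, Hk2 and Hk3 encode the high-affinity hexokinases of other tissues. Pfkl encodes the liver-type phosphofructokinase, the Pfkfb genes encode the bifunctional enzymes that make and break down its activator fructose 2,6-bisphosphate, and pyruvate kinase is made from Pklr in hepatocytes and red cells and from Pkm in most other cells.

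Libraries held 18586798 to 32882704 counts, and a level is given as CPM, the read count relative to the TMM-adjusted size of its library. A gene without a count lay under 3 counts, or 0.106 CPM in old 1 and 0.111 to 0.173 CPM elsewhere. This floor covers counting error only. All counts of old 1, the library with the highest total, were even, and the cause was not tested. Its total and its floor may therefore not compare with those of the other libraries. The hepatocyte markers, 12 of 12 with counts in both groups, had sums of 187281 to 207333 CPM among young livers and of 219588 to 330553 CPM among old livers. Without Alb, the albumin gene, the sums were 80983 to 96529 CPM and 87024 to 109645 CPM and overlapped, as did the levels of 11 of the 12 markers. Transcripts of other cells differed between libraries. The 28 heart muscle markers had a sum of 125 to 156 CPM in each of young 2 to 5 and of 9.02 to 19.3 CPM in each other library. Not each of them followed the sum: Ryr2 was highest in young 1, at 7.05 CPM against 1.89 to 4.25 CPM in young 2 to 5. The 17 neutrophil and monocyte markers summed to 316 CPM in old 3 and to 10.4 to 27.8 CPM elsewhere, with Ltf at 0 in every library. The 12 red cell markers had sums of 79.1 to 439 CPM among young livers and of 569 to 2375 CPM among old livers, and 6 of them, the globin genes Hba1, Hba2 and Hbb included, were higher in every old liver, while the other 6 overlapped. The 14 T and natural killer cell markers summed to 8.75 to 12.6 CPM among young livers and 16.4 to 53.8 CPM among old ones, highest in old 3, with 6 markers higher in every old liver and 8 that overlapped.

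Pklr was the only gene of the set whose age groups did not overlap, as was found for 6.53% of all genes tested. It was lower in every old liver than in every young liver, 1.37-fold on the fitted scale, but it missed the threshold over all genes. Gckr and Pfkl differed little between the ages, Pfkfb1 and Pfkfb3 had lower means in old livers without a call, and the low-level genes Hk3 and Pkm had higher means without a call, with old 3 the highest library for both. By edgeR's quasi-likelihood test 0 of the 9 genes passed an adjusted p of 0.05, where 1.00% of the 12778 genes tested did. An unadjusted p under 0.05 was found for 2 of the 9, Pklr and Pkm, and for 15.9% of all genes. DESeq2 called 1 of the 9, Pklr, as lower, against 2.11% of the genes it tested, and limma-voom called 0. The log2 fold changes of old over young had a median of -0.04 over the 9 genes and 0.01 over all genes tested, and 4 of the 9 lay above 0.

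**Figure D1:**
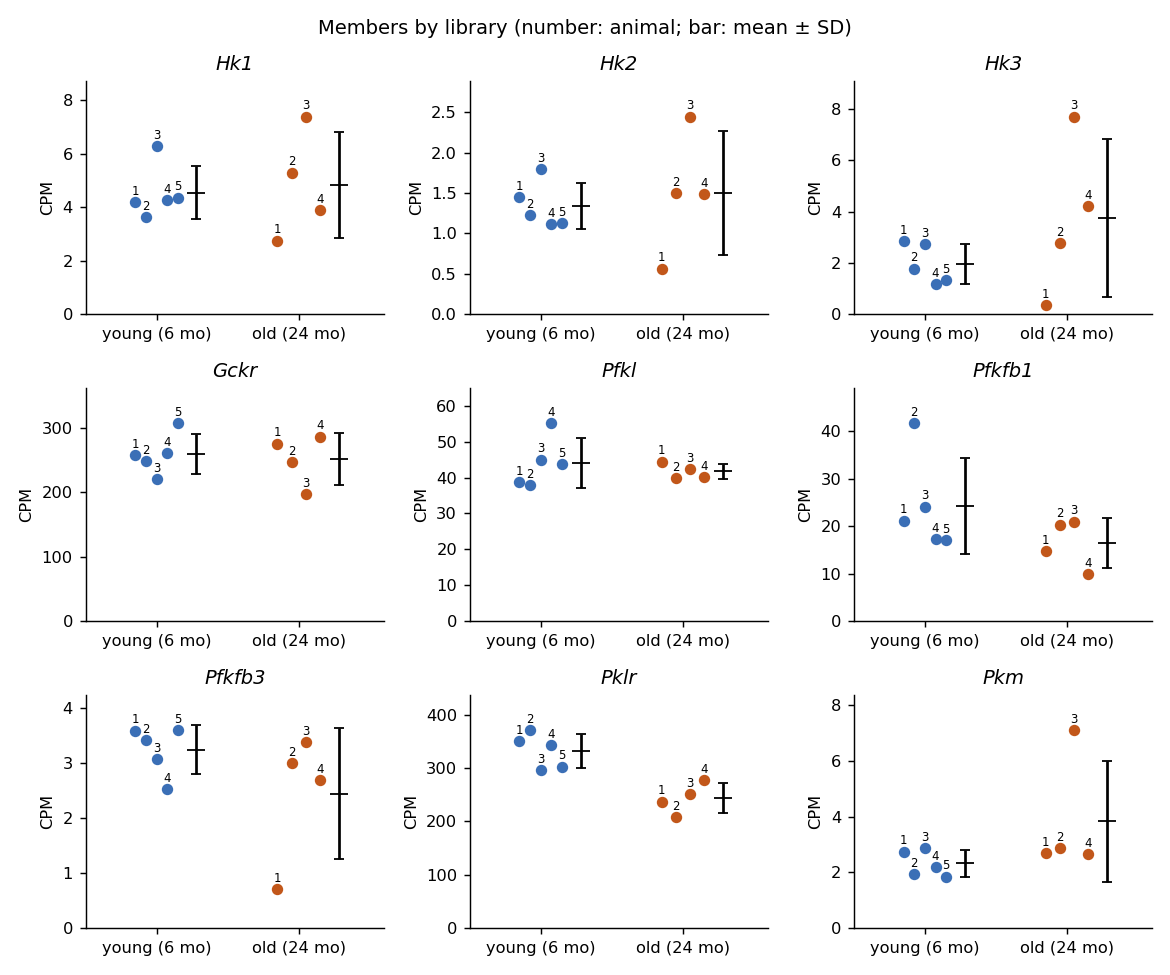
CPM of the 9 genes in each library (vertical axes start at 0), with young animals in blue, old animals in orange, the animal number above each point and the group mean ± SD as a black bar. The groups do not overlap for Pklr alone, and old 3 is the highest point for Hk1, Hk2, Hk3 and Pkm.

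Pklr encodes the liver and red cell pyruvate kinase, which makes pyruvate and ATP in the last step of glycolysis. Its level was 350, 371, 296, 343 and 303 CPM in young 1 to 5 and 237, 208, 251 and 277 CPM in old 1 to 4. The lowest young animal thus lay above the highest old animal, a separation found in 6.53% of all genes tested, and in 3.12% with old livers lower. The means were 333 ± 32.0 CPM (SD, n = 5) and 243 ± 28.8 CPM (SD, n = 4). The log2 fold change was -0.45 ± 0.12 (SE), with an edgeR p of 0.00306 and an adjusted p of 0.105. DESeq2 gave the same size, -0.45, with an adjusted p of 0.00543, and scaling by library totals gave -0.62 with an adjusted p of 0.0457 in edgeR. That scaling moved the median of all genes to -0.17 and called 1.63% of them lower. Red cells also use Pklr, and the sum of their markers was higher in every old library than in every young one, although 6 of the 12 markers overlapped. The part of these cells in the Pklr level was not tested.

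Without any 1 library the log2 fold change of Pklr ran from -0.52 to -0.38, and the adjusted p by edgeR from 0.0900 to 0.233. Without young 2 to 5, the libraries with the higher sums of heart markers, young 1 alone was left in the young group. This library was assumed to vary like the old livers. The value was then -0.51 ± 0.24 (SE), which with a single young library does not show whether the difference holds. The part of the heart transcripts was not tested.

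**Figure D2:**
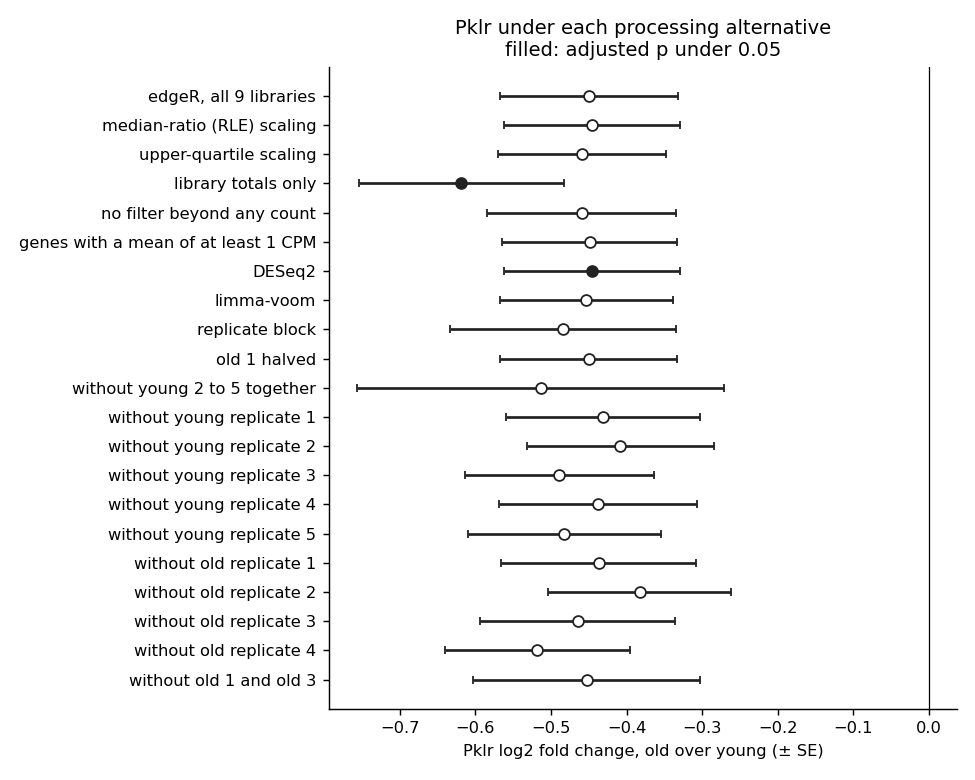
Log2 fold change of Pklr, old over young, with its SE (horizontal axis) under the analysis reported and each of 20 alternatives (vertical axis). Every estimate lies between -0.62 and -0.38, and the filled points, for an adjusted p under 0.05, are DESeq2 and scaling by library totals.

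The start region of Pklr is shown beside that of Pkm because the liver form is the classic glucose-responsive promoter of glycolysis. The windows come from RefSeq on the GRCr8 build and run from 250 bases before to 50 bases after the annotated start, on the plus strand at chr2:176841014-176841313 for Pklr and chr8:68953385-68953684 for Pkm. Capitals mark matches to any of 4 motifs.
Pklr: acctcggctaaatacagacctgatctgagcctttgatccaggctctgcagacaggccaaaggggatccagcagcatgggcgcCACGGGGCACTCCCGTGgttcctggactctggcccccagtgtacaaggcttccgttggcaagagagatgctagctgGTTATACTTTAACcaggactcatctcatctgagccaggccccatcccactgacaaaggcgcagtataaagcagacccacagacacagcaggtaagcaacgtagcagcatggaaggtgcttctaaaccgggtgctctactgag
Pkm: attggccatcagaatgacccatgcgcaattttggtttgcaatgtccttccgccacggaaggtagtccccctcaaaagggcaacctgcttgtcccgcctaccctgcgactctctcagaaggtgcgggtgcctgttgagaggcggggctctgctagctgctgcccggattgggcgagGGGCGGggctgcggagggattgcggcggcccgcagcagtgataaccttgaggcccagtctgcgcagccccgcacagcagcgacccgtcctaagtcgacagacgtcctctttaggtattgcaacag
The motifs were searched on both strands in the 10 windows of the 9 genes (Hk1 has 2) and in all 33469 windows of the table. The half-sites CACGGG and CCCGTG with 5 bases between them, the form of the carbohydrate response element at Pklr, begin 168 bases before the start of Pklr and were found in 1 window of the table (0.00299%). The letters GTTA and TAAC with 5 bases between them, after the binding site of the liver factor HNF1, begin 92 bases before that start and were found in 0.248% of windows. The E-box CACGTG was found in 6.42% of windows and, among the 9 genes, at Pfkfb3. The GC box GGGCGG was found in 33.1% of windows and at Hk1, Pfkfb3, Pfkl and Pkm. The matches to different motifs did not overlap in the 9 genes' windows. The letters were chosen with the Pklr sequence known, so their presence there is a description.

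Mlxipl encodes ChREBP, the factor known to act on the carbohydrate response element. Its level was 213, 186, 133, 154 and 173 CPM in young 1 to 5 and 79.4, 138, 120 and 157 CPM in old 1 to 4. The groups overlapped, and the log2 fold change was -0.47 ± 0.20 (SE, edgeR adjusted p = 0.285). Txnip, another gene that ChREBP is known to induce, lay at 59.2 ± 8.02 CPM (SD, n = 5) in young and 61.9 ± 3.64 CPM (SD, n = 4) in old livers, a log2 difference of 0.06 ± 0.11 (SE; adjusted p = 0.795 by edgeR). Of 20 regulators of hepatic glycolysis genes, 0 passed by edgeR in either direction, 4 had an unadjusted p under 0.05 (15.9% of all genes did), and DESeq2 called 2 higher (3.03% of the genes it tested).

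Pkm encodes the pyruvate kinase of muscle and of most cells other than hepatocytes. Its isoforms M1 and M2 come from the same gene and are not separated in the table. Pkm had 36 to 76 counts in each library other than old 3 and 154 counts there. Its level was 2.74, 1.93, 2.88, 2.19 and 1.85 CPM in young 1 to 5 and 2.68, 2.88, 7.11 and 2.65 CPM in old 1 to 4. Old 3 stood far above all others, and the other old livers lay within or at the top of the young range. The log2 fold change was 0.72 ± 0.32 (SE), with an edgeR p of 0.0495 and an adjusted p of 0.314, and without old 3 it was 0.24 ± 0.21 (SE, adjusted p = 0.589). The neutrophil and monocyte marker Lyz2, a lysozyme gene, lay at 67.2 CPM in old 3 and 5.75 to 12.5 CPM elsewhere, and S100a9 at 76.1 CPM in old 3. The sums of macrophage, red cell, and T and natural killer cell markers were also highest in old 3 (944, 2375 and 53.8 CPM). The part of these cells in the Pkm level was not tested. Young 2 to 5, which had the higher sums of heart markers, had 1.85 to 2.88 CPM of Pkm against 2.74 CPM in young 1.

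Hk3 encodes a hexokinase known from white blood cells. Its level was 2.86, 1.78, 2.74, 1.17 and 1.33 CPM in young 1 to 5 and 0.353, 2.76, 7.71 and 4.21 CPM in old 1 to 4. The old livers held both the lowest and the highest level, so the groups overlapped. The log2 fold change was 0.92 ± 0.64 (SE, edgeR adjusted p = 0.506). It was 0.29 ± 0.62 without old 3, 1.30 ± 0.39 without old 1 and 0.82 ± 0.38 without both (SE, edgeR adjusted p = 0.840, 0.180 and 0.401). The Kupffer cell and macrophage markers, 13 of 14 with a row and Cd5l at 0 in every library, summed to 247 to 482 CPM in young livers, and to 134, 440, 944 and 515 CPM in old 1 to 4. Old 1 and old 3 were thus the extremes of this sum as well as of Hk3. All 13 markers overlapped between the ages, and not each followed the sum. Cd14 was lowest in old 3, at 35.0 CPM against 44.0 to 56.1 CPM in young livers. The part of macrophages in the Hk3 level was not tested. In a bulk sample fewer cells of a type and less RNA per cell cannot be told apart.

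The genes whose levels followed Hk3 most closely over the 9 libraries were C1qc, C1qa and Csf1r, all among the macrophage markers. Their Pearson r with Hk3 on log2 CPM was 0.99 each, and Spearman's rho was 1.00, 0.98 and 0.95. With the libraries farthest from the median left out, old 1 and old 3, r over 7 libraries was 0.97, 0.94 and 0.95. These genes were the highest of 10667 compared, so the values describe likeness and carry no p. C1qa, a complement subunit made by macrophages, lay at 22.6 to 43.9 CPM in young livers and at 9.74, 40.3, 78.8 and 42.1 CPM in old 1 to 4.

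**Figure D3:**
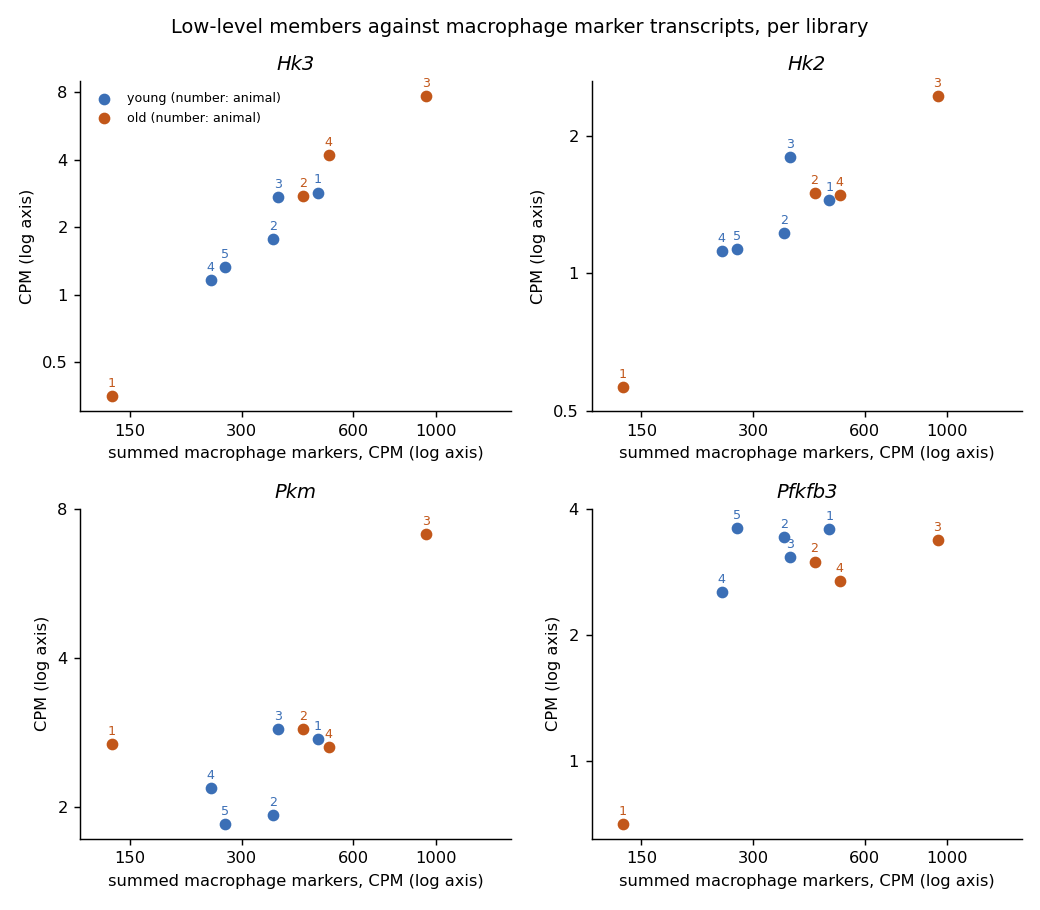
CPM of Hk3, Hk2, Pkm and Pfkfb3 (vertical, log axis) against the summed CPM of 13 macrophage markers (horizontal, log axis), each point a library (young blue, old orange, animal number above). Hk3 and Hk2 rank the libraries much as the markers do, from old 1 at 134 to old 3 at 944 CPM of markers, while Pkm is apart in old 3 and Pfkfb3 in old 1.

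Hk1 and Hk2 encode the hexokinases that bind mitochondria, Hk1 in most tissues and Hk2 chiefly in muscle and fat. Hk1 lay at 4.19, 3.64, 6.27, 4.28 and 4.36 CPM in young 1 to 5 and at 2.75, 5.29, 7.38 and 3.89 CPM in old 1 to 4. Hk2 lay at 1.45, 1.22, 1.79, 1.12 and 1.13 CPM in the young and at 0.564, 1.50, 2.45 and 1.48 CPM in the old libraries. For both genes old 1 was the lowest and old 3 the highest of all 9 libraries, and the young range lay inside the old. The log2 fold change was 0.08 ± 0.28 for Hk1 and 0.15 ± 0.37 for Hk2 (SE, edgeR adjusted p = 0.902 and 0.866). Without old 3 it was -0.20 for Hk1 and -0.20 for Hk2, with the opposite sign. Tifab, Cd86 and Actr3 were most like Hk2 (r = 0.99, 0.99 and 0.98 over 9 libraries; 0.97, 0.96 and 0.89 over 7). Cd86 encodes a costimulatory protein of antigen-presenting cells. Dpysl2, Tmem2 and Tgfb1 were most like Hk1 (r = 0.97, 0.95 and 0.94; 0.92, 0.85 and 0.83 over 7).

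Gckr, the glucokinase regulatory protein gene, had no call. It lay at 258, 249, 221, 261 and 307 CPM in young 1 to 5 and at 276, 247, 197 and 287 CPM in old 1 to 4. The groups overlapped over almost their whole range, and old 3 was the lowest library. The means were 259 ± 31.1 CPM (SD, n = 5) and 252 ± 40.2 CPM (SD, n = 4), and the log2 fold change was -0.04 ± 0.14 (SE, edgeR adjusted p = 0.896). Its sign turned without old 3, at 0.06. Wdtc1, Glud1 and Polrmt were most like Gckr (r = 0.95, 0.95 and 0.94 over 9 libraries; 0.82, 0.82 and 0.80 over 7). Glud1 encodes the mitochondrial glutamate dehydrogenase.

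Pfkl, the liver-type subunit of phosphofructokinase, which commits sugar to glycolysis, was the least variable of the set in old livers. It lay at 38.6, 37.9, 45.0, 55.1 and 43.6 CPM in young 1 to 5 and at 44.4, 39.9, 42.3 and 40.1 CPM in old 1 to 4. All old values fell inside the young range. The coefficient of variation was 15.7% in young and 5.07% in old livers, and the log2 fold change was -0.08 ± 0.11 (SE, edgeR adjusted p = 0.764). Fibp, Vps51 and Hook2 were most like Pfkl (r = 0.95, 0.91 and 0.91 over 9 libraries; 0.79, 0.77 and 0.72 over 7). The other subunits are mostly made outside hepatocytes, Pfkm in muscle and Pfkp in platelets and many other cells. Pfkm lay at 3.40 ± 0.481 CPM (SD, n = 5) in young and 4.38 ± 1.22 CPM (SD, n = 4) in old livers, and Pfkp at 1.69 ± 0.547 and 1.81 ± 1.06 CPM. Their log2 fold changes were 0.37 ± 0.21 and 0.09 ± 0.39 (SE, edgeR adjusted p = 0.428 and 0.926), and that of Pfkp was -0.39 without old 3.

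Pfkfb1 encodes the liver form of the bifunctional enzyme, which glucagon signalling turns from making to removing fructose 2,6-bisphosphate. It lay at 21.2, 41.6, 24.1, 17.2 and 17.1 CPM in young 1 to 5 and at 14.8, 20.3, 21.0 and 9.83 CPM in old 1 to 4. Young 2 stood far above every other library, and 2 old livers lay below all young ones. The log2 fold change was -0.56 ± 0.31 (SE, edgeR adjusted p = 0.404), and without young 2 it was -0.28 ± 0.23 (adjusted p = 0.664). Fen1, Zfp9 and Dmd were most like Pfkfb1 (r = 0.92, 0.91 and 0.90 over 9 libraries; 0.88, 0.88 and 0.70 over 7). Dmd encodes dystrophin.

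Pfkfb3 encodes an inducible form that mostly makes the activator and is known from endothelial, immune and proliferating cells. It lay at 3.58, 3.41, 3.07, 2.53 and 3.59 CPM in young 1 to 5 and at 0.705, 2.99, 3.37 and 2.69 CPM in old 1 to 4. Old 1 stood below all others with 20 counts, and the other old livers fell inside the young range. The log2 fold change was -0.42 ± 0.37 (SE, edgeR adjusted p = 0.595) and -0.10 ± 0.17 without old 1 (adjusted p = 0.830). The endothelial markers, 10 of 10 with counts in both groups, summed to 351 to 398 CPM in young livers. Their sums were 190, 399, 275 and 291 CPM in old 1 to 4, so the sum was lowest in old 1 too. Not each marker followed the sum: Clec4g was highest in old 1, at 38.1 CPM, and Vwf was lowest in young 1, at 11.2 CPM. Between the ages, 1 marker was higher and 2 were lower in every old liver, and 7 overlapped. The part of endothelial cells in the Pfkfb3 level was not tested. Mrc1, a mannose receptor gene of macrophages and sinusoidal endothelium, was most like Pfkfb3 (r = 0.98 over 9 libraries and over 7), followed by Tmem63c and Kif13b (r = 0.97 each; 0.81 and 0.74 over 7). Pfkfb2, which is also made in liver, lay at 22.0 ± 4.04 CPM (SD, n = 5) in young and 21.8 ± 1.78 CPM (SD, n = 4) in old livers (log2 fold change -0.01 ± 0.14 SE, edgeR adjusted p = 0.973). Pfkfb4 had 0 to 8 counts per library and did not pass the filter.

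Spidr, Msl1 and Hyls1 were most like Pklr (r = 0.98, 0.95 and 0.95 over 9 libraries; 0.98, 0.91 and 0.91 over 7). Ly6e, Ucp2 and Lyz2 were most like Pkm (r = 0.97 each; 0.81, 0.80 and 0.73 over 7, with old 3 among the libraries left out). Lyz2 is among the neutrophil and monocyte markers.

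Ratios of counts within a library do not depend on how libraries are scaled, and they were compared between libraries only, not as levels of different genes. The log2 ratio of Pkm to Pklr was -6.99, -7.59, -6.69, -7.29 and -7.36 in young 1 to 5 and -6.47, -6.18, -5.14 and -6.71 in old 1 to 4. Old livers were higher by 1.06 on average, and by 0.73 without old 3, with old 4 just below young 3. The groups overlapped in all 5 ratios computed. The log2 ratio of Pfkl to Pfkm was 3.69 ± 0.31 (SD, n = 5) in young and 3.30 ± 0.45 (SD, n = 4) in old livers, and that of Hk1 to Hk2 was 1.76 ± 0.20 and 1.77 ± 0.38. The ratio of Hk3 to Hk1 ranged from -2.96 in old 1 to 0.11 in old 4 and spanned the young range of -1.87 to -0.55. The ratio of Pfkfb1 to Pfkfb3 ranged from 1.87 in old 4 to 4.39 in old 1, around a young range of 2.25 to 3.61.

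**Figure D4:**
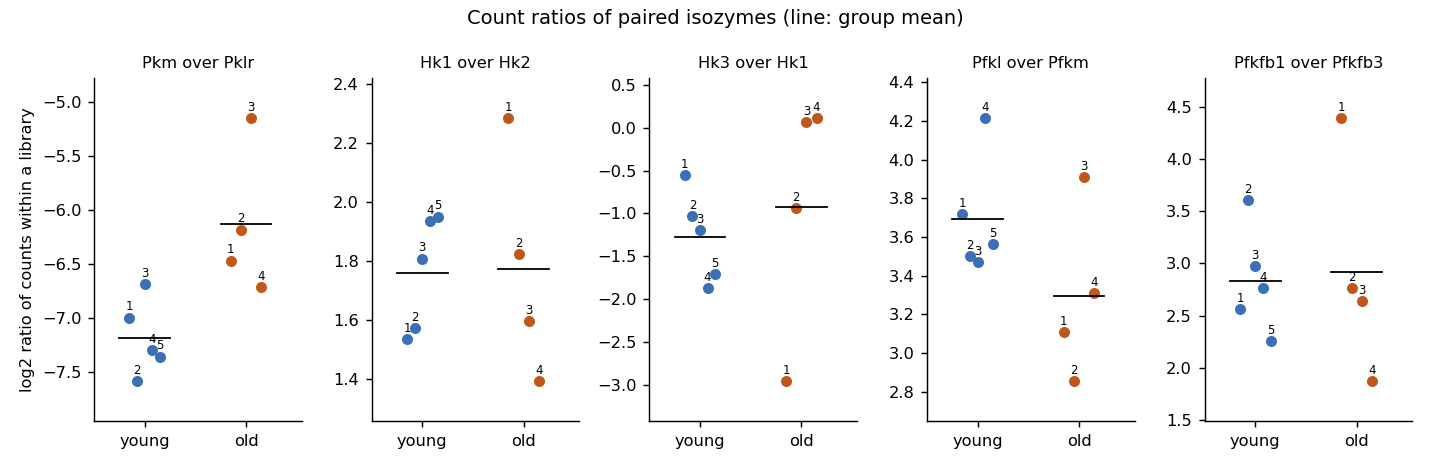
Log2 ratio of read counts of paired genes within each library (vertical axes, different ranges that do not start at 0), young in blue and old in orange with animal numbers and a line at each group mean. The ratio of Pkm to Pklr has group means of -7.18 and -6.12, and the other ratios overlap more widely.

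The remaining glycolysis genes showed 1 call. Of 23 listed genes 21 had a row and 17 were tested, and edgeR called 1 higher and 0 lower in old livers (1.00% of all genes tested passed), with a median log2 fold change of 0.10 against 0.01 over all genes. The higher gene was Bpgm, which makes 2,3-bisphosphoglycerate and is best known from red cells. It lay at 12.2, 8.50, 8.73, 9.23 and 9.08 CPM in young 1 to 5 and at 20.4, 12.4, 25.1 and 22.5 CPM in old 1 to 4. It rose by 1.07 ± 0.19 on the log2 scale (SE, edgeR adjusted p = 0.0389), and its call ended in 7 of the 9 fits that left out 1 library, with a highest adjusted p of 0.107 without young 4. The sum of the red cell markers was also higher in every old library than in every young one, with 6 of the 12 markers overlapping. Their part in the Bpgm level was not tested.

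Enzymes of the middle of the pathway had no call by edgeR other than Bpgm. Gpi, the gene of glucose-6-phosphate isomerase, lay at 113 ± 22.4 CPM (SD, n = 5) in young and 121 ± 17.2 CPM (SD, n = 4) in old livers, and differed by 0.10 ± 0.16 (log2, SE; adjusted p = 0.789 by edgeR). Aldoa, the aldolase of muscle and red cells, differed by 0.18 ± 0.16 and Eno3, the muscle enolase, by 0.21 ± 0.23 (log2, SE, edgeR adjusted p = 0.589 and 0.680). The sign of Gpi turned with scaling by library totals. Ldha, which turns pyruvate to lactate, lay at 552, 366, 476, 510 and 460 CPM in young 1 to 5 and 434, 361, 344 and 293 CPM in old 1 to 4, and its log2 fold change was -0.40 ± 0.15 (SE, edgeR adjusted p = 0.236). Pgam2, the muscle phosphoglycerate mutase gene, lay under 0.7 CPM in every library and did not pass the filter. Tpi1, an enzyme every cell uses, had 1 count in all 9 libraries together, so a level at or near 0 in the table cannot be read as absence of the transcript. Many glycolysis genes have near-identical processed copies in the genome, and the handling of reads that match several places was not given in the sources used here, so levels of Pkm, Gapdh, Aldoa and Ldha are uncertain.

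**Figure D5:**
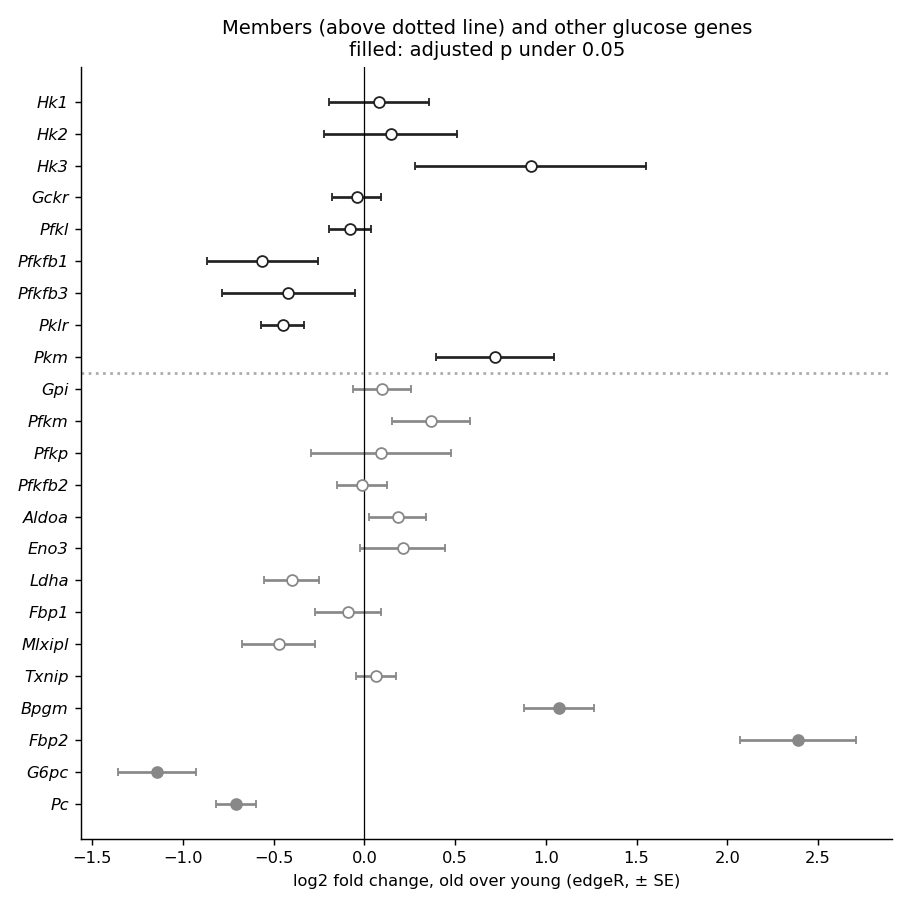
Log2 fold change, old over young, with its SE (horizontal axis) for the 9 genes (black, above the dotted line) and the other named genes of glucose use and production (grey), with filled points for an adjusted p under 0.05. No black point is filled, and the filled grey points are Bpgm and Fbp2 on the right and G6pc and Pc on the left.

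Among genes of the opposing direction, which makes glucose, 8 were tested. By edgeR 2 of them were lower and 1 was higher in old livers, where 1.00% of all genes tested passed in either direction. G6pc, which releases free glucose from the liver, lay at 1003, 1284, 1116, 1291 and 1234 CPM in young 1 to 5 and 403, 827, 431 and 487 CPM in old 1 to 4. It fell by 1.14 on the log2 scale (edgeR adjusted p = 0.0407), and its call ended in 8 of the 9 fits that left out 1 library (highest adjusted p 0.108, without young 4). Pc, which turns pyruvate into oxaloacetate, acts on the product of pyruvate kinase. It lay at 483, 523, 463, 525 and 464 CPM in young and 320, 303, 253 and 330 CPM in old livers, and fell by 0.71 (edgeR adjusted p = 0.0236), with its call ended in 4 of those 9 fits (highest adjusted p 0.0732, without young 4). Fbp2, the muscle form of fructose-1,6-bisphosphatase, was low throughout and rose by 2.39 ± 0.32 (SE, edgeR adjusted p = 0.00895), from 0.220 ± 0.0594 CPM (SD, n = 5) to 1.20 ± 0.358 CPM (SD, n = 4), with its call kept in 9 of 9 fits. Its young values lay near the floor of 3 counts. Fbp1, the liver form, differed by -0.09 ± 0.18 (log2, SE; adjusted p = 0.830 by edgeR). Of 13 genes of pyruvate entry into mitochondria, 0 passed by edgeR, DESeq2 or limma-voom and 3 had an unadjusted p under 0.05, against 15.9% of all genes tested. Whether the difference in Pklr was larger or smaller than that in G6pc or Pc was not tested.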

How the data were processed

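Poly(A) RNA from 9 rat livers was isolated (Qiagen RNeasy) and made into libraries with an Illumina TruSeq v2 kit, per the labels' protocols; that kit does not mark strand. The deposited table gives unnormalized counts, whole numbers of reads for each gene symbol. The submitters' processing notes name BWA. Its version, the genome build and annotation, the counter and the handling of reads with several matches are not given in the sources used here. Of 23479 symbols, 16431 matched RefSeq (GRCr8), which gave spellings and start windows only.

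The filter filterByExpr (minimum count 10, minimum total count 15) kept 12778 of 18071 genes with any count. After TMM scaling, the age groups were tested with the quasi-likelihood F test of edgeR (robust dispersion, two-sided), with Benjamini-Hochberg adjustment over all genes tested and a threshold of 0.05. The test was checked on simulated counts. Likeness was Pearson's r of log2 CPM (prior count 2) over 9 libraries, among genes that averaged 1 CPM or more, and the 3 highest per gene were named. For r over 7 libraries, the 2 in which the compared gene lay farthest from its median were left out. The libraries left out thus differ between compared genes. Named genes were the 9 members, a fixed list of other genes whatever their result (Hkdc1, without a row under that symbol, is not analysed here, and another item is not reported here) and pathway list members past the threshold. The members and lists were chosen with earlier results of these data known. Alternatives were other scalings and filters, DESeq2, limma-voom, a replicate block, old 1 halved and libraries left out; the fit without old 1 and old 3 was chosen after seeing the data. No pair of libraries of the same age group was identical within sampling noise, and pairs across the ages were not compared. Versions were edgeR 4.0.16, DESeq2 1.42.0 and limma 3.58.1 under R 4.3.3, and matplotlib 3.10.9 and scipy 1.17.1 under Python 3.11.15.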

Additional observations from a re-analysis of the deposited data

Results flagged for a closer look

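In 23 named genes, 46 groups of 4 or 5 animals were searched for an animal far from the others, and 5 were found. For normally distributed values about 1 in 20 groups is expected by chance, but whether CPM values follow that form was not tested. All 5 were the highest animal of their group. Pkm lay at 7.11 CPM in old 3, far above the other old livers. Pfkfb1 lay at 41.6 CPM in young 2 and Hk1 at 6.27 CPM in young 3, each far above the other young livers. Eno3 lay at 3.17 CPM in old 1 and Bpgm at 12.2 CPM in young 1, each the highest of its group. Their causes were not tested.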

How the results depend on the processing

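The analysis called 84 genes higher and 44 lower in old livers, 0 of the 9 members in either direction, 1 other glycolysis gene higher, and 1 higher and 2 lower among glucose-producing genes. Leaving out 1 library gave 20 (without young 4) to 115 (without old 2) higher and 10 (without young 4) to 86 (without old 2) lower genes, 0 members in each of the 9 fits, 0 to 1 glycolysis genes and 0 to 2 lower glucose-producing genes. With DESeq2 the counts were 386 higher and 269 lower, 1 member lower (Pklr) and 2 regulators higher. With limma-voom they were 35 and 26, with 0 glycolysis genes higher. With library totals 208 genes were lower, 1 of them a member (Pklr). With the 1 CPM filter, which left Fbp2 untested, 0 glucose-producing genes were higher. Replicate numbers shared by the ages were not taken as pairs. The deviations of like-numbered animals had correlations of -0.10, 0.10, 0.31 and -0.17. Those of unlike-numbered animals ranged from -0.15 to 0.22, so these few values cannot decide whether the numbers pair the animals. With the replicate block 27 genes were higher and 16 lower, with 0 calls in the glycolysis and glucose-producing lists. Without young 2 to 5 there were 0 and 0 calls, also 0 in those lists, and 429 genes had an unadjusted p under 0.05. Without old 1 and old 3 there were 30 higher and 6 lower, with 0 glycolysis and 0 lower glucose-producing genes called. Halving old 1, the other scalings and the absence of a filter left these counts within 1.5 times. The causes were not tested.

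Several uncalled log2 differences changed sign. With library totals they were -0.088 for Hk1, -0.016 for Hk2, -0.076 for Gpi, -0.096 for Pfkp and -0.11 for Txnip, and with limma-voom -0.023 for Hk1, -0.061 for Hk2 and -0.059 for Pfkp. With the replicate block they were 0.013 for Gckr, -0.020 for Hk2, -0.16 for Pfkp and 0.014 for Pfkfb2. Without young 2 to 5 they were 0.12 for Pfkl and -0.15 for Txnip. Without old 1 and old 3 they were 0.043 for Gckr, -0.021 for Gpi, -0.37 for Pfkp, 0.010 for Pfkfb2, -0.091 for Aldoa, -0.075 for Eno3 and 0.19 for Fbp1. Over the fits without 1 library, the ranges were -0.11 to 0.059 for Gckr, -0.20 to 0.28 for Hk1, -0.20 to 0.43 for Hk2, -0.13 to 0.015 for Pfkl, -0.39 to 0.31 for Pfkp, -0.080 to 0.061 for Pfkfb2, -0.028 to 0.30 for Eno3 and -0.23 to 0.066 for Fbp1. Pklr, Hk3, Pkm, Pfkfb1 and Pfkfb3 kept their sign in all 20 alternatives. Hk1, Hk2, Hk3, Pkm and Pfkfb3 rest on 10 to 167 counts per library, which limits their precision. The lowest counts of Hk2, Hk3 and Pfkfb3, 16, 10 and 20, were those of old 1, whose counts were all even.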
